A study of Arabidopsis thaliana with 24 samples.

Results

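ARR15 (locus AT1G74890, probe set 262212_at) and RR16 (locus AT2G40670, probe set 266078_at, also called ARR16) are type-A response regulator genes of the cytokinin pathway in Arabidopsis thaliana. Both were chosen with earlier results of these data known. Their probe sets were found by name in the platform annotation, which gives each gene 1 probe set. They make up 2 of the 22746 probe sets tested. Transcript levels were measured with 24 Affymetrix ATH1 arrays on leaves of Col-0 wild type (WT) and of acx1-2 (ACX), an insertion line in the Col-0 background for the gene of a peroxisomal acyl-CoA oxidase. Treated leaves were taken 1 h (3 arrays per genotype) or 72 h (3 arrays per genotype) after plants were sprayed with 23 mM of the auxin-like herbicide 2,4-D in 1% DMSO and 1% ethanol. The reference in each genotype is the 6 arrays named 0 h. Per the labels, solvent-only control plants were also harvested, 1 h and 72 h after spraying, and whether the 0 h arrays are these controls is not said. Herbicide, spraying, time of day and leaf age therefore cannot be told apart in any change from 0 h. Each replicate pooled leaves from at least 5 plants, and acx1-2 is a single line.

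Cytokinins are adenine-derived hormones that act on cell division, greening and leaf ageing. The hormone is perceived by membrane histidine kinases, and phosphotransfer proteins carry the signal as a phosphate group to response regulators in the nucleus. Type-B response regulators bind DNA and switch on the type-A genes. Type-A proteins hold the receiver domain without a DNA-binding output domain, and they dampen the pathway that induces them, so their transcripts are widely used as a readout of cytokinin signalling. In Arabidopsis, ARR15 is also under auxin control, being raised by auxin in the embryonic root and lowered by the auxin response factor MONOPTEROS in the shoot meristem. RR16 is a known target of SPEECHLESS, the transcription factor that starts the stomatal lineage of the leaf epidermis.

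The values are log2 expression values from RMA, in which 1 unit is a 2-fold difference. The lower quartile of an array lay between 4.42 and 4.61 and its median between 5.95 and 6.17. RMA compresses differences at the low end, where the lowest values of both genes lie. Rubisco activase, RCA, the measured member of the leaf mesophyll markers (1 of 7), read from 14.12 to 14.46 on the 24 arrays, and the root hair gene EXPA7 (1 of 4 root markers) read 4.28 to 5.32. The level of the disrupted acyl-CoA oxidase gene was not analysed here. The 0 h arrays of ACX were not uniform. Across all other probe sets, ACX 0 h replicates 3 and 6 correlated with each other at r = 0.991 and with the other 4 arrays of their group at r = 0.974 to 0.986, while those 4 correlated among themselves at r = 0.987 to 0.993. In WT, 0 h replicate 3 correlated with the rest of its group at r = 0.975 to 0.984, and the remaining pairs at 0.983 to 0.997. GI and TRY also set this array apart, reading 6.10 and 6.70 there and 7.36 to 8.14 and 8.25 to 8.47 in the other 5. Results of ARR15 and RR16 that rest on the ACX 0 h group are given with and without replicates 3 and 6, a choice made after seeing the data, in which these arrays also had the highest ARR15 values.

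ARR15 was high on the arrays named 0 h, lower at 1 h and lowest at 72 h in both genotypes. In WT at 0 h it read 7.19, 6.99, 7.05, 7.34, 7.59 and 7.43 in replicates 1 to 6. At 1 h the 3 WT arrays read 5.99, 5.92 and 5.98, and at 72 h they read 4.43, 4.68 and 4.65. The 3 WT groups did not overlap, and the 1 h arrays lay within 0.07 of each other. ARR15 fell 2.47-fold in WT by 1 h (log2 change -1.30, SE 0.31, adjusted p = 0.00303). Both ARR15 and RR16 fell in WT at this time, when 15.6% of all probe sets fell, and in 15.1% of all probe sets the 1 h arrays lay below every 0 h array. Only 1.66% of probe sets had a more negative change than ARR15. At 72 h ARR15 was 6.41-fold lower than at 0 h (log2 change -2.68, SE 0.31, adjusted p = 1.85e-07), with 0.976% of probe sets showing a more negative change. Of all probe sets 27% fell in this comparison, ARR15 and RR16 among them, and in 23.2% the 72 h arrays lay below every 0 h array. The step from 1 h to 72 h was itself a fall (log2 change -1.38, SE 0.36, adjusted p = 0.00299), in a comparison in which 24.4% of probe sets fell and 33.8% had every 72 h array below every 1 h array. At 1 h ARR15 had covered 48.6% of its 72 h change on the log2 scale. At 72 h its WT values lay at the lower quartile of the arrays.

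In ACX the ARR15 values at 0 h were spread widely. They read 6.35, 6.74, 8.15, 6.33, 6.05 and 7.70 in replicates 1 to 6, and the SD of 0.85 (n = 6) was exceeded by 1.13% of probe sets in that group. The corresponding SD in WT was 0.23 (n = 6). Replicates 3 and 6 were the high arrays. Other genes set the same pair apart: STOMAGEN, which encodes a peptide made in the mesophyll that promotes stomatal formation, read 8.78 and 8.73 there and 9.93 to 10.18 in the other 4, and the trichome gene TRY read 6.73 and 6.40 there and 7.52 to 8.18 in the others. The clock gene GI read 5.73 and 5.72 in the pair and 5.997 to 6.73 in the others. What these arrays share was not tested.

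After treatment the ACX values of ARR15 were close together again. The 1 h arrays read 5.72, 5.68 and 6.06, and the 72 h arrays read 4.51, 4.62 and 4.56. The 72 h arrays lay below all the others, while the highest 1 h array was 0.01 above the lowest 0 h array. ARR15 fell by 1.07 on the log2 scale at 1 h (SE 0.31, adjusted p = 0.0141), when 12.7% of probe sets fell. This call was lost without ACX 1 h replicate 2 (-0.997, adjusted p = 0.0652) and in a fit of these 2 groups alone (adjusted p = 0.125), and without ACX 0 h replicates 3 and 6 the change was -0.55 (adjusted p = 0.00811). At 72 h ARR15 was 5.01-fold lower than at 0 h (log2 change -2.32, SE 0.31, adjusted p = 1.39e-06), against a background of 27% of probe sets that fell and 23.7% whose 72 h arrays lay below every 0 h array. Without the pair of arrays this change was -1.80 (adjusted p = 2.58e-09). These 2 arrays were also the highest for ARR15, so leaving them out lowered the SE from 0.31 to 0.15. The smaller p values without them, at 1 h and at 72 h, therefore carry no independent weight. From 1 h to 72 h it fell by 1.26 (SE 0.36, adjusted p = 0.0065), where 22.6% of probe sets fell and 32.7% did not overlap in this direction. The 1 h change amounted to 45.9% of the 72 h change in ACX.

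**Figure D1:**
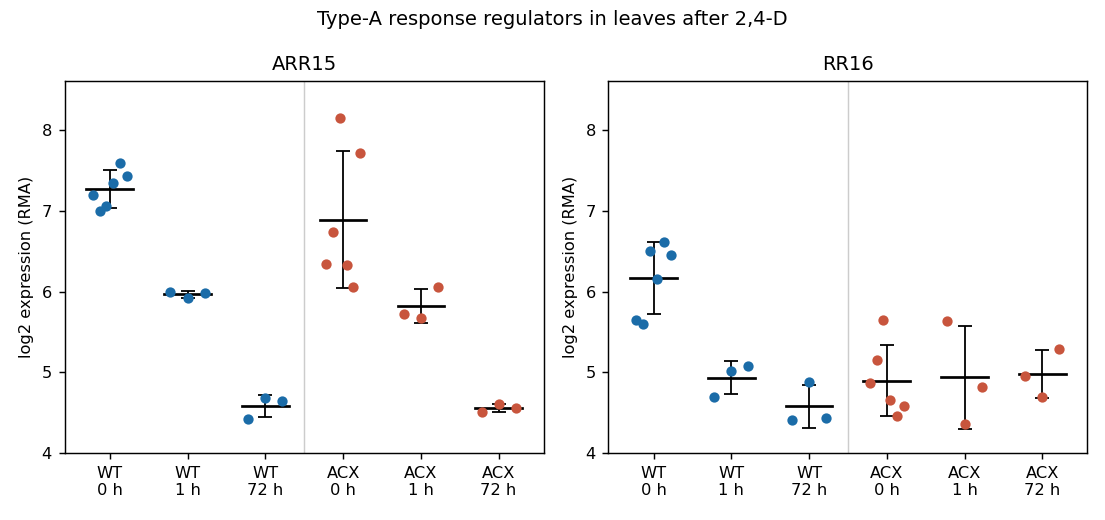
Log2 expression (RMA) of ARR15 (left) and RR16 (right) in each array, by genotype and time; points are arrays in replicate order from left to right (6 at 0 h, 3 at 1 h and 3 at 72 h), horizontal lines are group means and bars are SDs. ARR15 steps down to between 4.43 and 4.68 at 72 h in both genotypes. RR16 stands above 5.60 in all 6 WT 0 h arrays, and its other groups have lower means. ACX 0 h replicate 3 (5.65) and ACX 1 h replicate 1 (5.63) lie within the range of the WT 0 h arrays.

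RR16 had 1 high group, WT at 0 h. Its WT 0 h arrays read 5.65, 5.60, 6.50, 6.16, 6.61 and 6.45 in replicates 1 to 6. At 1 h the WT arrays read 4.70, 5.02 and 5.08, and at 72 h they read 4.41, 4.88 and 4.44. Every treated WT array lay below every WT 0 h array, while the 1 h and 72 h arrays overlapped. RR16 fell 2.35-fold in WT by 1 h (log2 change -1.23, SE 0.28, adjusted p = 0.00191) and was lower still against 0 h at 72 h (log2 change -1.58, SE 0.28, adjusted p = 4.72e-05). The difference between 72 h and 1 h was -0.35, with a 95% confidence interval from -1.02 to 0.31 (adjusted p = 0.37). At 1 h RR16 had covered 77.7% of its 72 h change. GI fell by 1.52 in WT at 1 h (SE 0.31, adjusted p = 0.000934), and whether time of day entered the fall of RR16 or ARR15 was not tested.

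In ACX, RR16 was already low at 0 h. The 0 h arrays read 4.86, 5.16, 5.65, 4.66, 4.46 and 4.59 in replicates 1 to 6. The 1 h arrays read 5.63, 4.37 and 4.83, and the 72 h arrays read 4.96, 4.70 and 5.29. All 3 ACX groups overlapped, and ACX 1 h replicate 1 stood above the other 1 h arrays. The change from 0 h was 0.04 at 1 h (95% confidence interval -0.53 to 0.62, adjusted p = 0.941) and 0.09 at 72 h (-0.49 to 0.66, adjusted p = 0.808), so neither a rise nor a fall was called. Both intervals leave out the WT point estimates of -1.23 and -1.58, which have an SE of 0.28 each. That is not a test between genotypes, and the direct comparison of the changes is given below. Without ACX 0 h replicates 3 and 6 the ACX changes were 0.15 and 0.20, and without ACX 1 h replicate 1 the change at 1 h was -0.30 (adjusted p = 0.554). ARR15 was thus the 1 of the 2 genes that fell in ACX at each time, against 12.7% of all probe sets at 1 h and 27% at 72 h.

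The 2 genes therefore ranked the groups differently. For ARR15 the means ran from WT at 0 h (7.27 ± 0.23, SD, n = 6) and ACX at 0 h (6.89 ± 0.85, SD, n = 6) to WT at 1 h (5.96 ± 0.04, SD, n = 3) and ACX at 1 h (5.82 ± 0.21, SD, n = 3), and then to WT at 72 h (4.59 ± 0.14, SD, n = 3) and ACX at 72 h (4.56 ± 0.05, SD, n = 3). Neighbours of the same time overlapped, and neighbours of different times did not. For RR16, WT at 0 h came first (6.16 ± 0.44, SD, n = 6), separated by 1.18 from the next mean. Behind it followed ACX at 72 h (4.98 ± 0.30, SD, n = 3), ACX at 1 h (4.94 ± 0.64, SD, n = 3), WT at 1 h (4.93 ± 0.20, SD, n = 3), ACX at 0 h (4.90 ± 0.44, SD, n = 6) and WT at 72 h (4.58 ± 0.26, SD, n = 3). Each of these 5 groups overlapped with the next.

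The comparison of genotypes at 0 h asks how the acx1-2 line differs from WT on the arrays named 0 h. RR16 was 2.40-fold lower in ACX (log2 difference -1.27, SE 0.23, adjusted p = 0.00161), and 0.207% of probe sets had a more negative difference. Of the 2 genes only RR16 was called, in a comparison in which 3.89% of probe sets were lower in ACX. The RR16 groups overlapped in 1 ACX array, replicate 3 at 5.65, which lay above WT replicate 2 at 5.60 and level with WT replicate 1. The difference was -1.38 without ACX 0 h replicates 3 and 6 (adjusted p = 0.00184). It was -0.69 when the 0 h group held replicates 1 to 3 only, and the call was then lost (adjusted p = 0.147). With 0 h replicates 4 to 6 only it was -1.84. GI, whose level follows the time of day, was also lower in ACX at 0 h, by 1.46 (SE 0.26, adjusted p = 0.00146), and its part in the RR16 difference was not tested. For ARR15 the difference at 0 h was -0.38 (95% confidence interval -0.91 to 0.14, adjusted p = 0.453). Without ACX 0 h replicates 3 and 6 it was -0.90 (adjusted p = 0.000412), a value that carries no independent weight because these arrays were also the highest for ARR15. With 0 h replicates 1 to 3 only it was -0.00167 (adjusted p = 0.998), and with replicates 4 to 6 only -0.76 (adjusted p = 0.0718).

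After treatment no genotype difference was called in either gene. At 1 h the difference was -0.15 for ARR15 (95% confidence interval -0.89 to 0.60, adjusted p = 1) and 0.01 for RR16 (-0.65 to 0.67, adjusted p = 1), in a comparison that called 0.0352% of probe sets. At 72 h it was -0.02 for ARR15 (-0.77 to 0.72, adjusted p = 0.995) and 0.40 for RR16 (-0.26 to 1.07, adjusted p = 0.705), where 2.79% of probe sets were called.

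The change itself was then compared between genotypes. For RR16 the 72 h change was higher in ACX than in WT by 1.67 (SE 0.39, adjusted p = 0.0134), in a comparison in which 3.1% of probe sets were called in this direction. It was 1.52 without ACX 72 h replicate 3 (adjusted p = 0.0535) and 1.10 with 0 h replicates 1 to 3 only (adjusted p = 0.136), both of which lost the call, and 1.78 without ACX 0 h replicates 3 and 6 (adjusted p = 0.00785). At 1 h the corresponding difference was 1.27 (SE 0.39, 95% confidence interval 0.46 to 2.09), with an unadjusted p of 0.00373 and an adjusted p of 0.27. Only 0.145% of probe sets were called in that comparison. With 0 h replicates 4 to 6 only it was 1.85 and passed (adjusted p = 0.0103), and without ACX 0 h replicates 3 and 6 it was 1.38 (adjusted p = 0.162). Both differences include the 0 h difference between the genotypes by construction. For ARR15 the genotype difference of the change was 0.23 at 1 h (95% confidence interval -0.68 to 1.14) and 0.36 at 72 h (-0.55 to 1.27), with adjusted p of 1 and 0.786. These ARR15 differences were 0.75 at 1 h (adjusted p = 0.151) and 0.88 at 72 h (adjusted p = 0.0125) without ACX 0 h replicates 3 and 6, subject to the same limit.

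**Figure D2:**
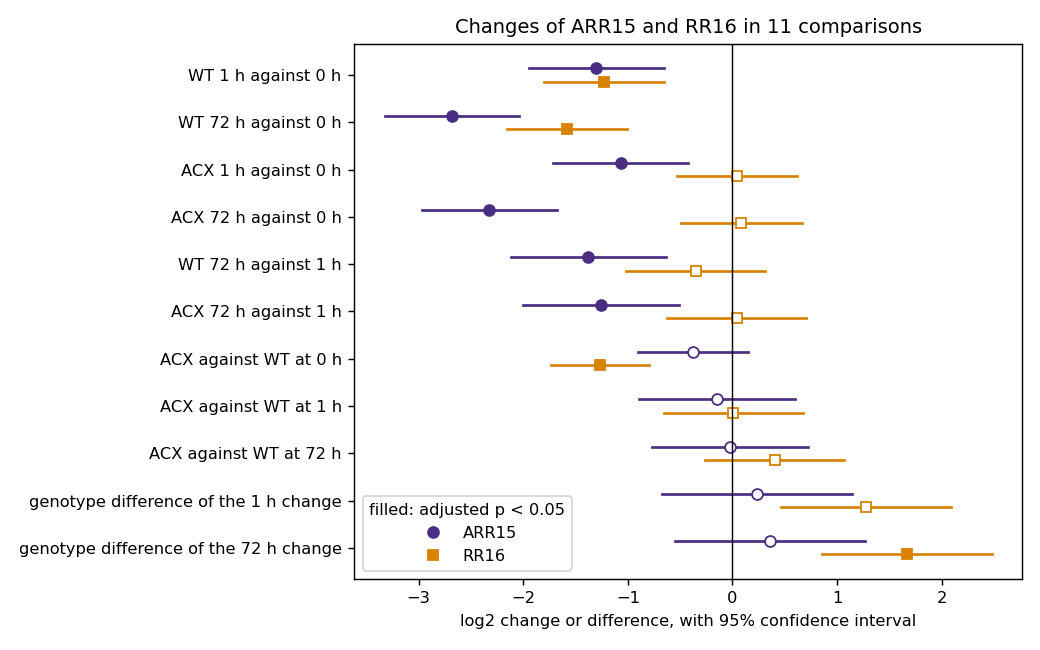
Log2 change or difference of ARR15 (circles) and RR16 (squares) in each of the 11 comparisons, with 95% confidence intervals from limma; filled symbols had an adjusted p under 0.05 over all 22746 probe sets. ARR15 is called in the 6 comparisons between times and in none between genotypes, and RR16 in the WT changes from 0 h, in the 0 h genotype difference and in the genotype difference of the 72 h change.

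Whether ARR15 and RR16 changed by different amounts was tested on the difference of their log2 values within each array. This difference moved by -0.07 in WT at 1 h (exact permutation test, two-sided, p = 0.786). It moved by -1.10 in WT at 72 h, by -1.11 in ACX at 1 h and by -2.41 in ACX at 72 h, each with exact p = 0.0238, the smallest that 6 against 3 arrays allow, and 0.0317 after adjustment over the 4 comparisons. In these 3 comparisons the groups did not overlap. In WT at 1 h the change of the difference was smaller than its SD of 0.35 between the 0 h arrays (n = 6), and by 72 h ARR15 had fallen further than RR16, which started lower. Both genes ended near the lower quartile of the arrays in WT, at means of 4.59 and 4.58. In ACX the RR16 mean was 4.90 already at 0 h, with arrays from 4.46 to 5.65. Whether these low levels limited the fall of RR16 was not tested. Without ACX 0 h replicates 3 and 6 the ACX changes of the difference were -0.70 and -1.998, and 4 against 3 arrays cannot pass (smallest exact p 0.0571).

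The rest of the cytokinin pathway could be followed for few genes. Of 72 genes listed for 9 groups, 7 had a named probe set, ARR15 and RR16 included. No receptor, phosphotransfer protein, synthesis gene, cytokinin response factor or transporter of the lists was among them. Of the type-A genes 2 of 10 were measured, of the type-B genes 2 of 11 and of the type-C genes 1 of 2. The other measured pair consisted of UGT76C1 and UGT76C2, which encode glucosyltransferases that inactivate cytokinins by attaching glucose to the ring nitrogen. RR23, called response regulator 23 in RefSeq, was found in the annotation and added.

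The glucosyltransferase genes moved in opposite directions at 72 h in each genotype. Mean UGT76C1 levels in WT were 6.96 (0 h) and 8.13 (72 h), against 6.997 and 8.35 in ACX. It rose by 1.17 in WT (SE 0.11, adjusted p = 8.49e-09) and by 1.36 in ACX (SE 0.11, adjusted p = 7.32e-10). UGT76C2 fell from 7.93 to 6.44 in WT (log2 change -1.50, SE 0.21, adjusted p = 3.21e-06) and from 8.08 to 6.68 in ACX (-1.40, SE 0.21, adjusted p = 7.34e-06). The ACX change at 72 h was 1.38 for UGT76C1, -1.19 for UGT76C2 and -0.33 for RR19 without ACX 0 h replicates 3 and 6, all still called. The 72 h arrays of both genes lay outside the range of their 0 h arrays in each genotype. Of all probe sets, 23.2% in WT and 23.7% in ACX had every 72 h array below every 0 h array. The share lying above is not given here. A more negative 72 h change than that of UGT76C2 was found in 4.65% of probe sets in WT and 5.72% in ACX. For UGT76C1 these shares were 91.3% and 93%. The 72 h changes were not called different between genotypes (adjusted p = 0.618 for UGT76C1 and 0.941 for UGT76C2). At 1 h UGT76C1 rose by 0.32 in WT (SE 0.11, adjusted p = 0.0331). It did not pass once WT 0 h replicate 2 (0.26, adjusted p = 0.0652) or WT 1 h replicate 3 (0.17, adjusted p = 0.325) was left out. Nor did it pass with 0 h replicates 4 to 6 only (adjusted p = 0.0802), in a fit of both groups alone (0.108), with a trended prior (0.0561) or with the replicate block (0.0802). Its change in ACX at 1 h was 0.22 (adjusted p = 0.179), and the changes of UGT76C2 at 1 h were 0.46 in WT (adjusted p = 0.12) and 0.41 in ACX (adjusted p = 0.184).

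The 4 other response regulator genes stayed within narrow ranges near the low end of the arrays. RR18, a type-B transcription factor gene, ranged over the 24 arrays from 3.85 to 4.45, and the type-C gene RR22 from 4.59 to 4.98. RR23 ranged from 3.84 to 4.16. RR19, of the type-B group, ranged from 4.14 to 4.88 and fell at 72 h by 0.36 in WT (SE 0.11, adjusted p = 0.0107) and by 0.34 in ACX (SE 0.11, adjusted p = 0.015). More negative changes were found in 22.7% of probe sets in WT and 24% in ACX. In WT the RR19 fall did not pass once WT 72 h replicate 2 or 3 was left out (adjusted p = 0.0539 and 0.0505), nor in ACX without ACX 72 h replicate 1 (adjusted p = 0.0646). The RR19 change in WT was -0.20 against 0 h replicates 4 to 6 alone (adjusted p = 0.124), and with quantile normalization that in ACX was -0.24 (adjusted p = 0.0678). None of RR18, RR22 and RR23 was called against 0 h in either genotype at 1 h or 72 h. From 1 h to 72 h RR19 also fell, with log2 changes of -0.56 in WT (SE 0.13, adjusted p = 0.00141) and -0.49 in ACX (SE 0.13, adjusted p = 0.00449). In this step 24.4% of probe sets fell in WT and 22.6% in ACX. In ACX, RR22 fell by 0.23 over the same step (SE 0.08, adjusted p = 0.0268), and at these low levels small changes may not be visible.

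**Figure D3:**
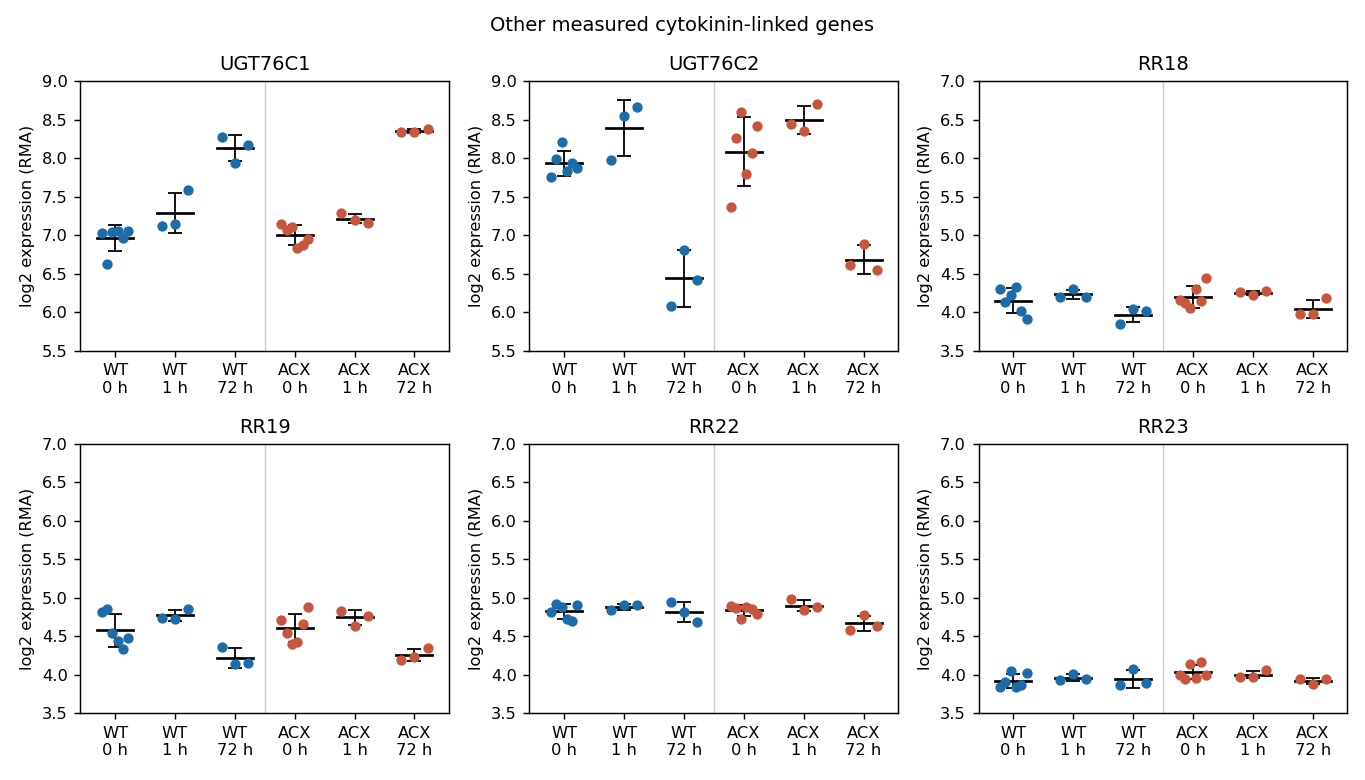
Log2 expression (RMA) of the 6 other measured cytokinin-linked genes in each array, by genotype and time; points are arrays in replicate order, lines are group means and bars are SDs, and the vertical axis runs from 5.5 to 9 for the UGT genes and from 3.5 to 7 for the response regulators. UGT76C1 stands highest and UGT76C2 lowest at 72 h in both genotypes, while RR18, RR19, RR22 and RR23 stay below 5 on all arrays.

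Since RR16 is linked to the stomatal lineage, genes of stomatal development are given beside it. Of 9 listed, 3 were measured: SPCH, which encodes SPEECHLESS, MUTE, which encodes the next transcription factor of the lineage, and STOMAGEN. STOMAGEN marks no lineage cell and is given on its own, a split made after the values were seen. With all 3 genes the mean log2 level per array was 6.195 to 6.43 in WT at 0 h, 5.82 to 6.01 at 1 h and 4.60 to 5.24 at 72 h. In ACX these ranges were 5.78 to 6.39, 5.595 to 5.89 and 4.35 to 4.61. The mean log2 level of SPCH and MUTE per array lay between 4.47 and 4.74 in WT at 0 h, between 4.58 and 4.69 at 1 h and between 4.07 and 4.28 at 72 h. In ACX it lay between 4.28 and 4.61 at 0 h, between 4.45 and 4.73 at 1 h and between 4.10 and 4.37 at 72 h. SPCH itself had a change of -0.07 in WT at 1 h (adjusted p = 0.686), where RR16 fell, and it fell by 0.54 at 72 h (SE 0.10, adjusted p = 0.000143). In ACX SPCH had a change of 0.03 at 1 h (adjusted p = 0.897) and fell by 0.36 at 72 h (SE 0.10, adjusted p = 0.00584), where RR16 was not called. MUTE had changes of 0.20 at 1 h (adjusted p = 0.174) and -0.22 at 72 h (adjusted p = 0.0758) in WT, and of 0.16 (adjusted p = 0.341) and -0.21 (adjusted p = 0.102) in ACX. Between genotypes at 0 h SPCH differed by -0.16 (adjusted p = 0.292), MUTE by 0.00095 (adjusted p = 0.998) and STOMAGEN by -0.17 (adjusted p = 0.824). The STOMAGEN changes, all called, were -1.34 in WT and -1.46 in ACX at 1 h, and -3.71 and -4.69 at 72 h. The 2 measured guard cell genes of 5, AT1G22690 and FMA, had a mean level of 8.19 to 8.74 in WT at 0 h and 5.67 to 7.20 at 72 h, and of 8.92 to 9.05 and 5.55 to 5.93 in ACX. Most of this fall came from AT1G22690, which changed by -3.58 in WT and -5.54 in ACX at 72 h. FMA changed by -0.40 in WT (adjusted p = 0.0187), where its groups overlapped, and by -0.88 in ACX (adjusted p = 1.16e-05). AT1G22690 was higher in ACX at 0 h by 0.998 (SE 0.26, adjusted p = 0.0215), and 99.1% of probe sets had a more negative difference. FMA differed by 0.09 (adjusted p = 0.742). SPCH (4.09 to 5.09) and MUTE (3.99 to 4.69) were near the lower quartile on all arrays. The part of these cells in the RR16 and ARR15 changes was not tested, and fewer cells of a type and less RNA per cell cannot be told apart in whole leaves.

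Genes with the most similar course over the arrays were ranked by the root mean square difference from each member, after the mean of each probe set over the 24 arrays was subtracted, among probe sets with 1 named gene. The 5 nearest to ARR15 were AT5G11420 (0.45 log2 units), AT5G09760 (0.47), AT2G29180 (0.47), AT3G04550 (0.48) and AT2G44640 (0.48). All 5 fell at 72 h in both genotypes, with changes from -2.36 to -2.12 in WT and from -2.35 to -1.80 in ACX. The 5 nearest to RR16 were AT5G48900 (0.41), AT4G34950 (0.41), AT2G01870 (0.42), AT3G14740 (0.43) and SNZ (0.43), an AP2-type gene known as a repressor of flowering. SNZ averaged 5.65 in WT at 0 h, 4.60 at 1 h and 4.52 at 72 h, and of 4.85, 4.51 and 5.01 in ACX. Its difference between genotypes at 0 h was -0.80 (adjusted p = 0.00244), and AT5G48900 (-0.76), AT4G34950 (-0.98) and AT2G01870 (-0.71) were lower in ACX at 0 h as well. AT3G14740 was not called there (-0.33, adjusted p = 0.355). ARR15 and RR16 themselves differed by 0.89 in this measure. Of 13512 other named probe sets, 1198 were nearer to ARR15 than RR16 was, and 11046 were nearer to RR16 than ARR15 was. These distances are a description of 24 arrays that share treatment groups and carry no test. The nearest genes were picked on the same arrays, so their changes and adjusted p carry no independent weight for ARR15 or RR16.

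**Figure D4:**
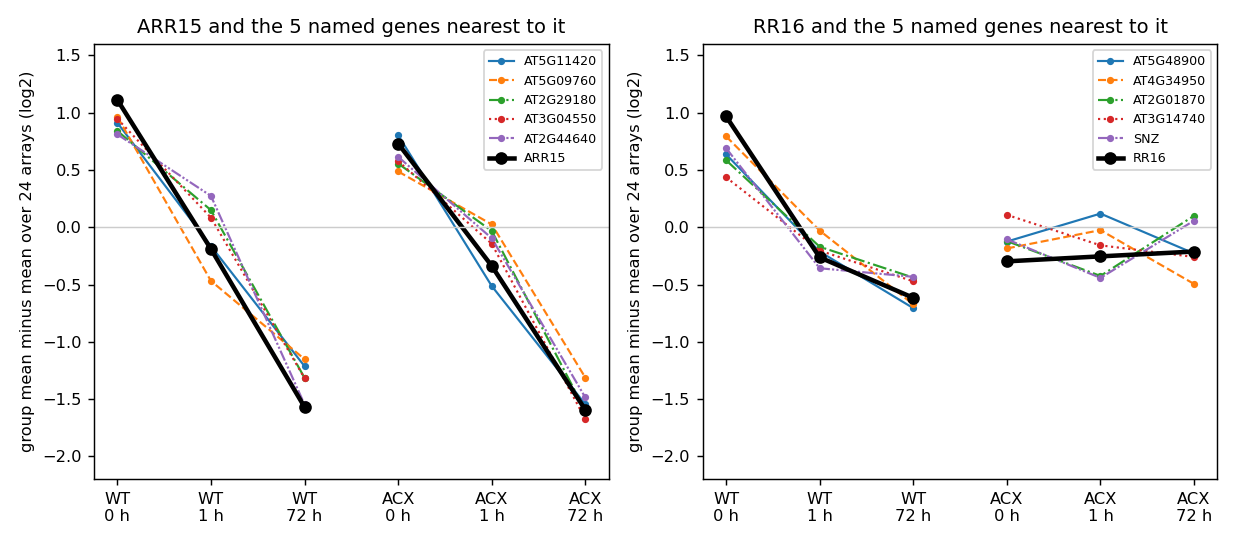
Group means of ARR15 (left, black) and RR16 (right, black) with the 5 named genes nearest to each, as log2 values minus the mean of the gene over the 24 arrays; lines join the times within a genotype. The genes near ARR15 step down with time in both genotypes, and those near RR16 are highest in WT at 0 h.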

How the data were processed

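The deposited log2 values per probe set come from RMA run by the authors (per the submitters' processing notes; limma is named too). Its version and settings were not given in the sources used here. RMA usually includes quantile normalization, which hides changes shared by most genes. Of 22810 probe sets, 64 Affymetrix controls were left out and 22746 tested, without rescaling or a filter. The platform annotation gives 1 gene to 13513. limma 3.58.1 in R 4.3.3 fitted 1 mean per group to 24 arrays (18 residual degrees of freedom). Benjamini-Hochberg adjustment covered all probe sets of each of 11 comparisons (threshold 0.05, two-sided). ARR15 minus RR16 was tested with exact permutation in scipy 1.17.1. Errors of changes are SEs and those of means SDs. The number of arrays limits precision, with a median SE of 0.128 against 0 h. The procedures were tested on simulated data.

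Members, lists and the likeness rule (the 5 nearest named genes, by root mean square difference) were chosen with earlier results of these data known. The rule for named genes took both members, list genes with 1 annotated gene and the nearest genes. GI, TRY and STOMAGEN beside the ARR15 spread were picked after their values were seen. The split of STOMAGEN from SPCH and MUTE was also made after the values were seen. No label ties a replicate number to a batch, and none gives a batch. Alternatives were array centring, quantile normalization, filters on the lowest 25% and 50%, a trended and robust prior, array weights, fewer groups, 1 probe set per gene, a replicate block, 0 h arrays 1 to 3 or 4 to 6 only, and each array left out in turn.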

Additional observations from a re-analysis of the deposited data

Results flagged for a closer look

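The 72 h change of RR16 differed between genotypes by a test of the difference itself: it was 1.67 higher in ACX than in WT on the log2 scale (adjusted p = 0.0134 in limma). Of 8 cytokinin-linked genes examined for single arrays that stand far from their group at 0 h, UGT76C1 in WT was singled out, where replicate 2 read 6.63 and the other 5 arrays 6.96 to 7.05, a gap of 0.79 of the group's range. Chance flags about 1 in 20 groups, and 16 were examined.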

How the results depend on the processing

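The falls of ARR15 in WT at both times, in ACX at 72 h and from 1 h to 72 h in both genotypes, and the falls of RR16 in WT, kept direction and call under every alternative run. RR16 lies below the median level, so no value exists without the lowest 50% of probe sets. Array centring turned uncalled values near zero: RR16 in ACX at 72 h to -0.0511, RR16 in ACX between 1 h and 72 h to -0.13 and the ARR15 genotype difference at 72 h to 0.00503. It moved the median 72 h change of all probe sets in WT from -0.06 to -0.21. Array weights turned RR16 in ACX at 1 h to -0.17 and its genotype difference at 1 h to -0.33. With only the groups compared, the ARR15 change in ACX at 1 h (-1.07) lost its call. With 0 h replicates 1 to 3 only, RR16 in ACX was -0.28 at 1 h and -0.24 at 72 h, its 0 h genotype difference (-0.69) and its 72 h genotype difference of the change (1.10) lost their calls, and the ARR15 genotype differences of the change were -0.15 and -0.0227. With replicates 4 to 6 only, the RR16 genotype difference of the 1 h change was 1.85 and passed. In the same setting RR16 in ACX was 0.37 at 1 h and 0.41 at 72 h, neither called. Its 0 h genotype difference was -1.84 there and its 72 h genotype difference of the change 2.24. Without ACX 0 h replicates 3 and 6, the ARR15 genotype difference at 0 h (-0.90) and of the 72 h change (0.88) passed. ARR15 minus RR16 lost its calls with 3 arrays against 3, a design whose smallest p is above the threshold: -1.15, -0.98 and -2.275 (WT 72 h, ACX 1 h, ACX 72 h) with 0 h replicates 1 to 3 and -1.04, -1.24 and -2.54 with 4 to 6. Without ACX 0 h replicates 3 and 6 it was -0.70 and -1.998, where 4 arrays against 3 cannot pass either (smallest exact p 0.0571).

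Leaving out each array gave ranges of -1.23 to -0.82 for ARR15 in ACX at 1 h, -0.30 to 0.33 for RR16 in ACX at 1 h, -0.067 to 0.24 at 72 h and -0.24 to 0.39 between them. For genotype differences they were -0.34 to 0.29 (RR16, 1 h), -0.10 to 0.0241 (ARR15, 72 h) and 1.52 to 1.82 (RR16, 72 h change). For ARR15 minus RR16 they were -0.20 to 0.0173 (WT 1 h), -1.21 to -0.99 (WT 72 h), -1.33 to -0.72 (ACX 1 h) and -2.58 to -2.18 (ACX 72 h); with a treated array left out, 6 against 2 cannot pass (smallest exact p 0.0714). Same-numbered arrays of different groups had deviations correlated at r = -0.509 to 0.342, with 10 of 45 above 0.1. Arrays of unlike number reached 0.434 (WT 1 h replicate 1 with ACX 1 h replicate 3). Values above 0.1 were thus not particular to same-numbered arrays. Between WT 0 h and WT 1 h, same-numbered arrays correlated at 0.097, 0.198 and 0.195, and arrays of unlike number at -0.154 to 0.019. The lowest value, -0.509, was between replicates 1 of WT and ACX at 1 h. A pairing by number within some groups is therefore not excluded, and the main fit uses none. With the replicate block the ARR15 change in WT at 1 h was -1.30 and the RR16 genotype difference of the 72 h change 1.67 (adjusted p = 0.0302); no call of either gene changed, and UGT76C1 in WT at 1 h lost its call (0.30). The cause of these shifts was not tested. Whether the low level of RR16 after treatment limited how far a fall could show was not tested either.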
